A study of Mus musculus with 26 samples.

Results

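CarB and CarC are 2 mouse squamous skin carcinoma lines of spindle morphology, and they were compared here with the other 5 lines of that morphology, D3, D3DP, A5, MSN2 and H11. The 7 lines were chosen by their cell line title and by a spindle pathology flag of 1, and they are 7 of 26 lines in the series. The remaining lines were 12 carcinoma lines without spindle pathology, 2 keratinocyte lines, 1 papilloma line and 4 lines whose labels put them in no group. Each line was measured on 1 Affymetrix M430 2.0 array, from RNA of serum-grown cells harvested in log phase. Both groups carry the same label apart from the line's name, and the labels name no genotype, mouse strain, sex, passage or treatment. They do not say whether any of the 7 lines came from the same tumour or animal. All levels below are deposited log2 values from RMA, an array normalisation, so that a difference of 1 is a 2-fold difference.

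Spindle carcinoma is the elongated, fibroblast-like form that squamous skin tumours can take after epithelial-to-mesenchymal transition, in which junctions and keratins are lost and matrix genes are gained. The locus that holds Cdkn2a and Cdkn2b encodes p16Ink4a, p19Arf and p15Ink4b. The Ink4 proteins block the cyclin D kinases that inactivate the retinoblastoma protein, and p19Arf stabilises p53 by binding Mdm2, so loss of the locus is common in carcinoma and in immortalised cells.

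CarB and CarC were more like each other than like any other spindle line. Over the 11786 genes tested, the correlation of log2 levels was 0.924 between CarB and CarC. It was 0.842 to 0.884 between CarB and the other 5 lines, and 0.788 to 0.852 between CarC and those lines. The 5 others did not form 5 evenly spaced lines, since A5 and H11 correlated at 0.986 and D3DP and MSN2 at 0.971. These correlations run across genes, which are not independent replicates, and are a description. The Y-linked Eif2s3y stood at 7.66 in D3, 8.56 in D3DP and 8.19 in MSN2, against 3.31 in A5, 3.03 in H11, 3.11 in CarB and 3.23 in CarC. Xist, the RNA that silences an X chromosome, stood at 12.74 in A5, 12.89 in H11, 12.11 in CarB and 8.44 in CarC, and at 5.51 to 5.68 in the rest. The 5 comparison lines thus fell into 3 with and 2 without a Y-linked transcript, and CarB and CarC lay with the latter.

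In limma, 1475 of the 11786 genes (12.5%) differed between CarB and CarC and the 5 others at an adjusted p under 0.05, 691 higher (5.86%) and 784 lower (6.65%). Of these, 992 (8.42% of the genes tested) differed by 1 log2 unit or more. Regardless of any test, both lines lay above all 5 others in 15% of genes and below all 5 in 21.7% (36.7% in all), against which a lack of overlap is to be read. The count rests on which lines enter. Without CarC it was 345, and without CarB 1437. Without A5, MSN2 or H11 it was 844, 783 or 924. Calls that also passed without each single line in turn numbered 256 (2.17%), 182 higher (1.54%) and 74 lower (0.628%), and the genes below are named first from these. Taken singly in a model of 3 groups, CarB had 345 calls (2.93%), 228 higher (1.93%) and 117 lower (0.993%), and CarC had 1437 (12.2%), 625 higher (5.3%) and 812 lower (6.89%). CarB and CarC, 1 array each, were there assumed to vary like the 5 other lines, which serve as controls for both. The comparison of CarB singly is the same test as the fit without CarC, and that of CarC singly the same as the fit without CarB. Here and below, these counts are therefore not separate evidence. When D3, D3DP and MSN2 were averaged to 1 value and A5 and H11 to another, which leaves 2 against 2, only Nid1 passed in limma (adjusted p = 0.0258), while 2339 genes had an unadjusted p under 0.05. All other adjusted p-values take the 5 lines as independent, and their error is the scatter of lines rather than of repeat cultures.

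The genes that rose most include those of secreted matrix proteins, a protease and a prostaglandin receptor. Plac8, a small cysteine-rich protein, stood at 12.72 in CarC and 12.59 in CarB, against 3.89 in D3, 4.19 in D3DP, 4.74 in A5, 3.79 in MSN2 and 5.01 in H11. CarB and CarC lay far above all 5, a difference of 8.33 (SE 0.35, adjusted p = 7.14e-05). Nid1, nidogen-1, which links laminin to collagen IV in basement membranes, stood at 11.30 in CarC, 11.24 in CarB, 3.38 in D3, 3.32 in D3DP, 3.46 in A5, 3.86 in MSN2 and 3.36 in H11. The groups did not overlap (difference 7.80, SE 0.18, adjusted p = 8.2e-06), and the gene's other 2 probe sets differed by 2.42 and 4.59 in the same direction. Ptger2, the EP2 receptor for prostaglandin E2, stood at 11.43 in CarC and 10.44 in CarB and at 3.92 or less in the 5 others. It reached no more than 5.0 in any of the other 24 lines of the series, so that both lines were the highest of all (difference 7.65, SE 0.34, adjusted p = 7.94e-05). In the 5 others Plac8, Nid1 and Ptger2 lay below the array medians, where values are mostly background. They entered the test only through CarB and CarC, and their SEs and p-values carry the compressed scatter of values near background. The same holds for Emilin2, Brinp3, Eda2r, Col1a1, Mmp19, Hgf, Spry4, Fgf7, Ccl9, Il6, Il11, Tbx18, S100a8 and Car9.

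**Figure D1:**
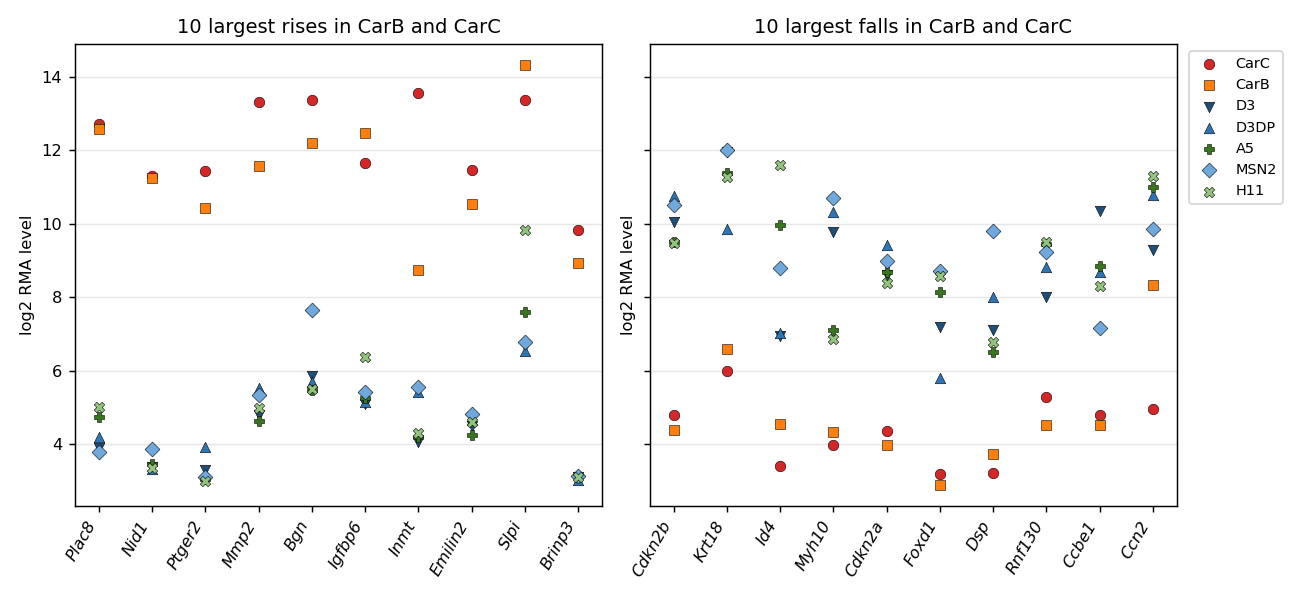
Log2 RMA level (y axis) in each of the 7 spindle lines for the 10 called genes with the largest rise (left) and the 10 with the largest fall (right) in CarB and CarC; each point is 1 array. CarB and CarC lie apart from the 5 others for each gene, while the 5 others spread widely for Id4, Myh10, Dsp and Ccbe1.

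Mmp2, a gelatinase that cuts collagen IV, stood at 13.32 in CarC and 11.56 in CarB against 4.64 to 5.53 (difference 7.38, SE 0.47, adjusted p = 0.000345). Bgn, the matrix proteoglycan biglycan, stood at 13.37 and 12.21 against 5.48 to 7.65, with MSN2 the highest of the 5. Igfbp6, which binds insulin-like growth factor II, stood at 11.65 in CarC and 12.48 in CarB against 5.10 to 6.38. The elastin-fibre glycoprotein Emilin2 rose by 6.42 (SE 0.27), the secreted protease inhibitor Slpi by 6.37 (SE 0.89) and Brinp3 by 6.29 (SE 0.24). Inmt, a methyltransferase of small amines, rose too (difference 6.44, SE 1.17, adjusted p = 0.018), but stood at 13.57 in CarC and 8.74 in CarB. All 10 of the largest rises were also called without each single line. Over the series, only Nid1 and Bgn of these 10 had another line at or above the lower of CarB and CarC. These were carcinoma lines without spindle pathology, MSC12 for Nid1 (11.47) and MSC12 (13.18) and MSCP5 (12.81) for Bgn. Lines of that group also came close for Plac8 (12.13 in MSC12) and Mmp2 (11.52 in MSC7A).

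The largest falls were those of Cdkn2b (-5.46, SE 0.39, adjusted p = 0.000656) and Krt18 (-4.99, SE 0.57, adjusted p = 0.00431). Krt18, a keratin of simple epithelia, stood at 6.0 in CarC and 6.6 in CarB, against 11.94 in D3, 9.85 in D3DP, 11.37 in A5, 12.01 in MSN2 and 11.27 in H11. Both lines were below all 5 others, although other lines of the series went as low as 3.88. The RING-finger gene Rnf130 fell by 4.10 (SE 0.44), from 8.02 to 9.51 in the 5 others to 5.30 in CarC and 4.52 in CarB. Its other 3 probe sets lay between 4.04 and 5.23 in all 7 lines, near or below the array medians, and do not bear on the fall. Among the other large falls, Id4, an inhibitor of helix-loop-helix factors, was not called without CarC, CarB, A5 or MSN2. The desmosome linker Dsp and Ccbe1 lost their calls without CarC or CarB, and the transcription factor Foxd1 without CarC. Myh10, a non-muscle myosin, lost its call without CarC, CarB, D3, D3DP or MSN2, and its second probe set was near background in all 7 lines.

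At the locus of Cdkn2a and Cdkn2b on chromosome 4, the 2 lowest levels of all 26 lines for both genes belonged to CarB and CarC. Cdkn2a stood at 4.37 in CarC and 3.98 in CarB, and at 8.6 in D3, 9.42 in D3DP, 8.69 in A5, 9.0 in MSN2 and 8.39 in H11. Cdkn2b stood at 4.81 and 4.40 in CarC and CarB, and at 10.06, 10.76, 9.5, 10.51 and 9.48 in D3, D3DP, A5, MSN2 and H11. The remaining 19 lines reached down to 5.27 for Cdkn2a and 7.39 for Cdkn2b, so neither gene overlapped with any other line. CarB and CarC lay below their array medians (5.04 to 5.15 across the arrays) for both genes, a range in which RMA values are mostly background and differences are compressed. Cdkn2a fell by 4.64 (SE 0.29, adjusted p = 0.00032).

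The promoters of the 2 genes that were near background, and of the neighbouring gene that was not, are shown to place these values on the chromosome. Each is the 250 bases before a gene start in RefSeq on GRCm38.p6, 5′ to 3′ on the gene's strand, and is the reference sequence, not read from these lines. Capitals mark GGGCGG, the core of the GC box, searched on both strands, which stood in 32.7% of the 32851 promoter windows of the same length.
Mtap, chr4:89137120-89137369, plus strand: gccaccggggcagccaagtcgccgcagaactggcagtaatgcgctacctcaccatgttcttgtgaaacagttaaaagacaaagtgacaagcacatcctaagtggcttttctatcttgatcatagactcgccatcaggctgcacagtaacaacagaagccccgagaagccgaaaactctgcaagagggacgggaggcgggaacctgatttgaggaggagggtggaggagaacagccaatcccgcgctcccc
Cdkn2a, inner start, chr4:89282193-89282442, minus strand: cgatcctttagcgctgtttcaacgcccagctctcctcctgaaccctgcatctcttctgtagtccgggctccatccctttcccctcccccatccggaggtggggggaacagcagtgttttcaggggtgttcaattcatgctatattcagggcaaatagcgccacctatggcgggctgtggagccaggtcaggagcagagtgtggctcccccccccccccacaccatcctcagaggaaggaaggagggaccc
Cdkn2a, outer start, chr4:89294620-89294869, minus strand: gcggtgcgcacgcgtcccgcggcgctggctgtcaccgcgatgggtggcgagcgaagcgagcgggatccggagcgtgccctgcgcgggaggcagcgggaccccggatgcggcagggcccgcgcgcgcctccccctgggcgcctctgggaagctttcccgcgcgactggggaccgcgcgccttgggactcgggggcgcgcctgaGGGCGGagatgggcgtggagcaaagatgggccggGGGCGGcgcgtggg
Cdkn2b, chr4:89311033-89311282, minus strand: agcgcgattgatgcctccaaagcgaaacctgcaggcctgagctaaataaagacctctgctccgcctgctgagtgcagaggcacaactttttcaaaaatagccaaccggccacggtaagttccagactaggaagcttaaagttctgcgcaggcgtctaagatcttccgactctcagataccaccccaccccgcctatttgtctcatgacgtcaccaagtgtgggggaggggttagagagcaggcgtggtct
The outer start of Cdkn2a held 40 CG pairs and 2 matches, the inner start 7 CG pairs, Cdkn2b 12 and Mtap 11, each of the last 3 with 0 matches of these letters. The sources used here do not say which Cdkn2a transcript its 1 probe set measures.

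No neighbouring gene that was tested was called lower, and 2 were called higher. Mtap, which recycles methylthioadenosine and lies next to Cdkn2a, stood at 12.48 in CarC and 12.34 in CarB, against 11.61 in D3, 11.72 in D3DP, 11.22 in A5, 11.57 in MSN2 and 11.12 in H11. CarB and CarC were its highest lines of all 26, and it rose by 0.96 (SE 0.21, adjusted p = 0.028), with differences of 0.96 to 1.12 over its 4 probe sets. Its call was lost without CarC, CarB, A5 or MSN2. Hacd4, of the enzymes that elongate fatty acids, stood at 10.53 in CarC and 9.38 in CarB against 4.04 to 7.15 (difference 4.68, SE 0.77, adjusted p = 0.0137), a call lost without CarC. Klhl9, between Hacd4 and Mtap, differed by 0.32 (adjusted p = 0.183), and beyond them Focad differed by -0.05 and Mllt3 by -0.42.

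**Figure D2:**
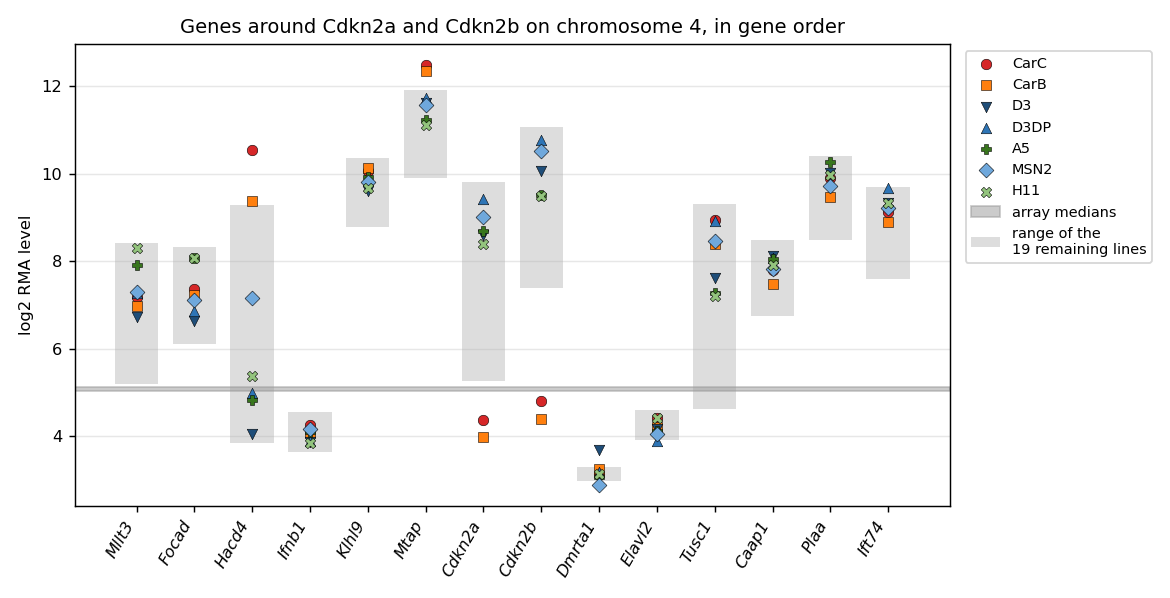
Log2 RMA level (y axis) of 14 genes around Cdkn2a and Cdkn2b on chromosome 4, in gene order on GRCm38.p6 (x axis, not to distance), with 1 point per spindle line. Light bars give the range of the 19 remaining lines and the dark band the array medians of the 7 lines; CarB and CarC fall below both for Cdkn2a and Cdkn2b, while Mtap beside them is higher than in every other line.

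On the other side, Dmrta1 and Elavl2, the nearest genes measured, were below the level needed for testing in these lines, as was Ifnb1 on the Mtap side. Further out, Tusc1, Caap1, Plaa and Ift74 differed by 0.77, -0.36, -0.27 and -0.34, and none was called (adjusted p of 0.171 or more in limma). Of the 11 genes of this neighbourhood that were tested, 2 were called higher and 2 lower (36.4% called, against 12.5%). The 2 lower are Cdkn2a and Cdkn2b themselves, around which the list was drawn, so the share is not further evidence. Only these 2 kept the call without each single line. Arrays of RNA do not show whether the DNA of the locus is present, and this was not tested.

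Transcripts of genes that act beside and below p16Ink4a and p15Ink4b in the cell cycle were called in both directions. Of 20 tested genes of the CDK inhibitor and Rb list, 2 were called higher and 5 lower (35% called, against 12.5% of all genes). The 5 include Cdkn2a and Cdkn2b themselves. The pair's median difference was -0.69, against -0.08 over all genes, but the lines disagreed, with medians of 0 in CarB and -1.13 in CarC. Cdkn2c, encoding the p18Ink4c inhibitor, was higher in CarC (12.08) and CarB (10.71) than in the 5 others (9.20 to 10.09), a difference of 1.79 (SE 0.42, adjusted p = 0.0378). Cdkn1a, the p21 inhibitor that p53 induces, stood at 10.29 in CarC and 11.67 in CarB, and at 9.01 in D3, 6.67 in D3DP, 7.92 in A5, 8.04 in MSN2 and 7.86 in H11. Both lines were above the 5 others (difference 3.08, SE 0.62, adjusted p = 0.0238). The genes that fell beside Cdkn2a and Cdkn2b were the cyclins Ccnd1 (-1.76) and Ccne1 (-1.13), which bring cells towards S phase, and the transcription factor E2f3 (-0.79). Ccnd1 stood at 9.45 in CarC and 10.99 in CarB, against 11.62 to 12.61 in the 5 others. The kinase Cdk6 stood at 8.71 in CarC and 7.78 in CarB against 9.72 to 13.04 (adjusted p = 0.0766, not called). Without single lines the call of Cdkn2c was lost for CarC, D3, A5, MSN2 or H11, that of Ccnd1 for each line but CarB, that of Ccne1 for CarC, A5, MSN2 or H11, and that of E2f3 for CarC, CarB, D3, MSN2 or H11. The call of Cdkn1a was lost without CarC, CarB, A5 or MSN2. Of the 7 calls only those of Cdkn2a and Cdkn2b passed without each single line, and the number of calls was 2 without CarC, 3 without A5, 2 without MSN2 and 3 without H11.

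Among p53 target genes, 5 of 23 tested were called higher and 0 lower (21.7% against 12.5%), with a median difference of 0.42 and 18 of 23 above 0. The mean over the list was 7.93 in CarC, 8.68 in CarB and 7.46 to 7.64 in the 5 others. In the carcinoma lines without spindle pathology it was 7.41 to 8.89. CarB and CarC thus lay inside that range, and the 5 others near its lower end. Trp53inp1, a stress protein that p53 induces, stood at 11.37 in CarC and 10.82 in CarB, against 5.48 in D3, 6.52 in D3DP, 6.08 in A5, 6.08 in MSN2 and 6.18 in H11. The groups did not overlap (difference 5.03, SE 0.29, adjusted p = 0.000275). Eda2r, a receptor of the tumour necrosis factor family, stood at 7.28 in CarC and 8.10 in CarB against 3.77 to 4.26 (difference 3.60, SE 0.25, adjusted p = 0.000577). Both genes were higher still in Hrasnull, a line in no group, at 12.35 for Trp53inp1 and 8.8 for Eda2r. Ccng1, cyclin G1, named here after its values were seen because it is among the 5, rose by 1.35 (SE 0.19). Sesn2, a stress-induced sestrin, rose by 1.51 (SE 0.21) but lost its call without CarC, and Cdkn1a is the remaining gene of the 5. Cdkn1a was also counted among the CDK inhibitors, so its call is not further evidence. Taken singly, the list's median difference was 0.94 in CarB and 0.2 in CarC.

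Proliferation genes divided CarB from CarC. Of 29 mitotic genes, 0 were called for the pair at an adjusted p under 0.05. At an unadjusted p under 0.05 there were 3 of them. Taken singly against the same 5 lines, 0 were called in CarB (5 at an unadjusted p under 0.05) and 26 were called lower in CarC. Over all genes tested, the share called lower was 6.89% in CarC and 0.993% in CarB. The mean log2 level of the 29 mitotic genes was 7.74 in CarC and 10.55 in CarB, against 10.35 in D3, 9.87 in D3DP, 10.34 in A5, 10.14 in MSN2 and 10.34 in H11. CarC was the lowest and CarB the highest of all 26 lines. Of 31 DNA replication genes 0 were called in the pair (18 at an unadjusted p under 0.05), 0 in CarB (1 unadjusted) and 25 lower in CarC, with means of 7.19 in CarC, 9.63 in CarB and 9.52 to 10.03 in the 5 others.

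**Figure D3:**
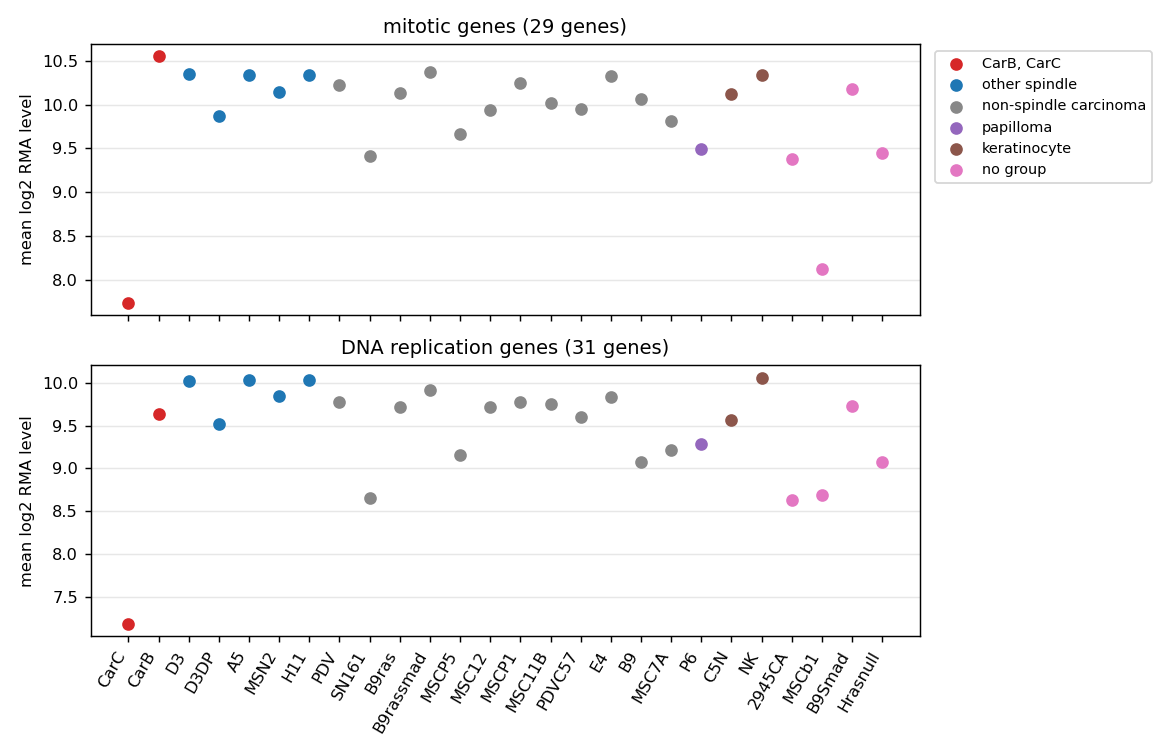
Mean log2 RMA level (y axis) of the mitotic genes (top) and the DNA replication genes (bottom) in each of the 26 lines (x axis), coloured by group, 1 point per line. CarC is the lowest line in both panels, and CarB lies at the upper end for mitotic genes and among the other spindle lines for replication genes.

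CarB exceeded CarC by 2 log2 units or more in 29 of the 29 mitotic genes and in 23 of the 31 replication genes, against 2.47% of all genes tested. Kif11, the spindle-pole motor, stood at 5.59 in CarC and 9.10 in CarB, with 8.63 to 9.28 in the 5 others. Birc5, survivin, stood at 7.47 and 10.94 with 10.84 to 11.59 in the others, and the S-phase and mitotic cyclin Ccna2 at 7.80 and 11.21 with 10.58 to 12.02. CarC was thus below all other spindle lines for each, and CarB lay inside their range. Cdc6, which loads the replicative helicase, stood at 4.45 in CarC and 8.66 in CarB, with 8.28 to 8.97 in the 5 others. The helicase subunit Mcm5 stood at 7.04 and 11.18, with 11.20 to 11.81 in the others, and Uhrf1, which carries DNA methylation through replication, at 6.22 and 10.12, with 9.84 to 10.86. Among single genes of the cell cycle, cyclin E2 (Ccne2) stood at 4.47 in CarC and 8.20 in CarB, with 8.38 to 9.5 in the others. With the spread of the 5 other lines as the error, a test added after the data were seen, CarB exceeded CarC in 19 of 29 mitotic and 16 of 31 replication genes at an adjusted p under 0.05 in limma. Over all genes that test called 1.33%, 1.16% with CarB higher and 0.17% with CarC higher. That direct test rests on few lines: without A5, MSN2 or H11 it called 0 genes of both lists, and without D3 12 mitotic and 7 replication genes. The falls in CarC did not, with 25 to 27 mitotic and 23 to 26 replication genes called lower without each of the 5 lines in turn, although 0 were called with the close arrays averaged. The pair's median differences from the 5 lines were -1.10 for mitotic and -1.49 for replication genes, made up of medians of 0.35 and -0.28 in CarB and -2.44 and -2.83 in CarC.

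Over all genes tested, the proliferation lists included, CarB and CarC differed by 2 log2 units or more in 390 (3.31%), 291 higher in CarB and 99 higher in CarC (0.84%). The growth factor Fgf7, a mitogen of keratinocytes, stood at 11.32 in CarB and 6.31 in CarC, and at 4.36 to 4.70 in the 5 others, so both lines lay above those 5. Perp, a desmosome protein that p53 induces, stood at 3.96 in CarC and 8.92 in CarB, with 9.54 to 10.49 in the others. Pbk, a mitotic kinase, stood at 6.37 in CarC and 11.14 in CarB, and Dscc1, of sister chromatid cohesion, at 3.46 and 8.12. In the other direction, the monooxygenase Fmo1 stood at 11.91 in CarC and 6.11 in CarB, with 4.38 to 5.62 in the others, and Zfp518b at 8.11 and 4.04 with 4.78 to 5.71. For these 6 genes the difference between CarB and CarC passed limma with the spread of the 5 lines (adjusted p in limma of 0.0106 for Fgf7, 0.0191 for Perp, 0.0148 for Pbk, 0.0142 for Dscc1, 0.0191 for Fmo1 and 0.0211 for Zfp518b). Over all genes this test called 157, but 70 without D3, 1 without A5, 0 without MSN2 and 0 without H11.

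Several of the widest gaps between CarB and CarC lay along a division that also ran through the 5 comparison lines. The growth factor Ptn, pleiotrophin, stood at 10.79 in CarB and 4.70 in CarC, but also at 8.34, 10.95 and 9.88 in D3, D3DP and MSN2 and at 3.42 and 3.66 in A5 and H11. The transcription factor Osr1 and the GTPase Rhoj were likewise high in CarB, D3, D3DP and MSN2 and low in CarC, A5 and H11. Pdpn, podoplanin, stood at 10.98 in CarC and 4.40 in CarB, and at 9.22, 9.66 and 8.55 in D3, D3DP and MSN2 against 4.57 and 4.92 in A5 and H11. Krt8, the usual partner of Krt18, stood at 10.48 in CarC, 11.39 in D3, 9.15 in D3DP and 11.46 in MSN2, and at 5.02 in CarB, 5.59 in A5 and 5.73 in H11, so it did not follow Krt18. None of these 5 genes was called in any of the comparisons. Slit3, an axon guidance ligand, was higher in CarB (9.15) than in CarC (4.52), and Cxcl3, a neutrophil chemokine, Cdh11, a mesenchymal cadherin, and Omd, a matrix proteoglycan, were higher in CarC by 6.18, 4.44 and 3.94.

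**Figure D4:**
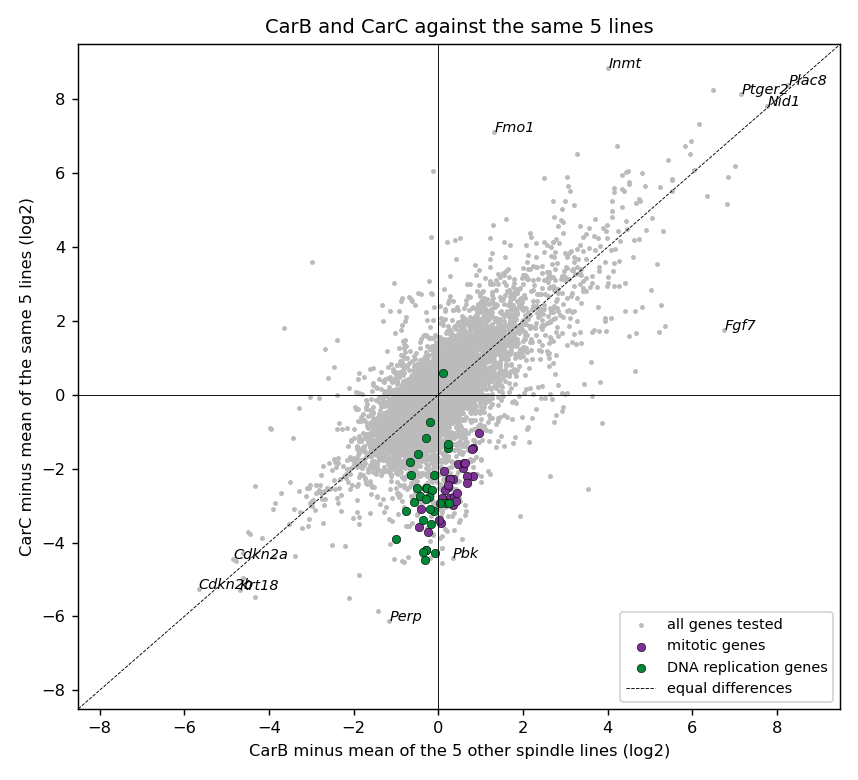
Difference from the mean of the 5 other spindle lines (log2), for CarB on the x axis and CarC on the y axis, with 1 grey point per gene tested. Both axes share the same 5 lines, so points along the dashed line are in part built in; the mitotic and DNA replication genes lie near 0 for CarB and mostly between -1 and -5 for CarC.

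Part of the matrix genes rose in the pair. Of 19 tested collagen chains 4 were called higher and 0 lower (21.1% against 12.5%), of 17 collagen-processing enzymes 6 higher and 0 lower (35.3%), and of 21 matrix proteases and inhibitors 4 higher and 0 lower (19%). The differences of 6, 4 and 7 members of these lists were below 0. Taken singly, CarB had median differences of 0.88, 0.92 and 0.93 over the 3 lists, and CarC 1.47, 1.24 and 1.11. Col1a1, a chain of fibrillar collagen I, stood at 10.72 in CarC and 8.20 in CarB, against 3.89 in D3, 4.24 in D3DP, 3.79 in A5, 4.06 in MSN2 and 3.85 in H11. Both lines were above the others (difference 5.49, SE 0.58, adjusted p = 0.00313), and CarC exceeded CarB (adjusted p = 0.0232 with the spread of the 5 lines, in the test that called 1 gene or none without A5, MSN2 or H11). Its partner Col1a2 stood at 13.80 and 13.25 against 5.45 to 9.79, and lost its call without CarC. Outside the spindle lines, MSC7A stood higher than CarB and CarC for both genes, at 13.42 for Col1a1 and 14.13 for Col1a2. MSCP5 (12.65) and MSC12 (11.02) also stood higher than both for Col1a1. P3h1 and P3h3, which hydroxylate prolines of collagen, rose by 2.02 (SE 0.23) and 2.89 (SE 0.27), and Mmp19, a matrix metalloprotease, by 3.39 (SE 0.14). Col12a1 (2.09), Col16a1 (2.12), the cross-linking enzyme Loxl3 (3.51), and the matrix-cutting Adamts5 (3.98) and Adamts1 (2.32) were called but lost the call without CarC. Without CarB or MSN2 the calls of Col16a1, Loxl3 and Adamts1 were lost too, as were those of Col16a1 without D3, Loxl3 without D3, A5 or H11, and Adamts1 without A5. Of the called members of the 3 lists, only Col1a1, P3h1, P3h3, Mmp2 and Mmp19 kept the call without each single line. The processing enzymes had 3 calls without MSN2 or H11.

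Of 21 tested mesenchymal genes 4 were called higher and 1 lower (23.8% against 12.5%). Dcn, the proteoglycan decorin, stood at 10.93 in CarC and 10.58 in CarB against 4.80 to 5.55 (difference 5.68, SE 0.23, adjusted p = 7.01e-05). Its second probe set was below the array medians in all 7 lines. Outside the spindle lines, MSC12 stood higher than CarB and CarC for Dcn, at 11.49. Pdgfra, a receptor of platelet-derived growth factor, stood at 13.04 and 12.27 against 5.85 to 9.57 and lost its call without CarC or CarB. Fibronectin (Fn1) rose by 2.27 (SE 0.57), and N-cadherin (Cdh2) fell by 3.38 (SE 0.75), to 3.87 in CarC and 6.87 in CarB from 8.23 to 9.43. Both lost their calls without CarC, A5, MSN2 or H11, Fn1 also without CarB and Cdh2 also without D3, and the number of calls was 1 without CarC, 3 without D3, 2 without A5, 2 without MSN2 and 3 without H11.

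Of 13 tested transcription factors of the epithelial-to-mesenchymal transition, 2 were called higher and 0 lower (15.4% against 12.5%). Snai1 rose by 2.18 (SE 0.53, adjusted p = 0.0402) and Tcf4 by 1.83 (SE 0.38, adjusted p = 0.0261), both calls lost without CarC, A5 or MSN2 and Snai1 also without CarB, D3 or H11. Zeb1 stood at 10.82 in CarC and 9.70 in CarB against 8.83 to 9.41, a difference of 1.15 that was not called (adjusted p = 0.0538). Snai2 differed by 0.90, Zeb2 by 0.53, Twist1 by 0.54, Twist2 by -1.21 and Prrx1 by 2.18, with adjusted p-values of 0.0996 to 0.238. Grhl2, which holds cells epithelial, was low in all 7 lines (4.99 to 5.85).

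Fibroblast markers overlap the matrix and mesenchymal lists, so their calls are not further evidence. Of 8 tested markers 4 were called higher (50% called, against 12.5%), the Col1a1, Col1a2, Dcn and Pdgfra already counted, and 2 were called without CarC. The mean over the 11 measured was 10.79 in CarC, 9.81 in CarB and 6.56 to 7.85 in the 5 others. CarC was the highest of the 26 lines for this mean, but CarB was below MSC12 (10.45), a carcinoma line without spindle pathology. Keratinocyte markers had means of 4.63 in CarC, 4.81 in CarB and 5.37 to 6.08 in the 5 others, against 11.92 and 11.88 in the keratinocyte lines C5N and NK. The 7 lines, labelled as squamous carcinoma, thus lay far below the keratinocyte lines in these markers. Immune, endothelial, melanocyte and skeletal muscle markers had 0 calls in limma among 9 tested (1 at an unadjusted p under 0.05) and means of 3.96 to 5.28 in all 7 lines, near the array medians. Smooth muscle and pericyte markers had 0 calls among 3 tested (0 at an unadjusted p under 0.05) and varied more, with means of 6.23 in CarC, 5.86 in CarB and 4.98 to 6.82 in the 5 others. What the marker levels have to do with the matrix genes was not tested, and in cultures measured in bulk, cells of another type and a changed level per cell cannot be told apart.

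Growth factors and receptors held calls in both directions. Pdgfra, called higher, is of this list too and was counted above. Hgf, hepatocyte growth factor, the ligand of Met, stood at 8.24 in CarC and 8.47 in CarB, against 4.45 in D3, 4.38 in D3DP, 4.21 in A5, 4.25 in MSN2 and 4.17 in H11. The groups did not overlap, and no other line of the series exceeded 6.78 (difference 4.06, SE 0.15, adjusted p = 5.84e-05). Pdgfa, a ligand of the Pdgfra receptor, stood at 6.70 and 6.68 in CarC and CarB, lower than in any other line (7.49 or more in the 24 others), and fell by 2.16 (SE 0.25, adjusted p = 0.00438). Over the list, 7 of 26 tested genes rose and 2 fell (34.6% against 12.5%), a count of 3 without CarC and 5 without MSN2. Ror2, a receptor for Wnt ligands, rose by 2.47 (SE 0.42), a call lost without CarC.

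Of the Ras and MAP kinase genes 2 of 28 rose and 2 fell (14.3%), near the share of all genes. Nras, a Ras GTPase, stood at 8.73 in CarC and 9.15 in CarB, against 10.39 in D3, 10.39 in D3DP, 10.50 in A5, 10.22 in MSN2 and 10.30 in H11. Both lines were below the others by 1.42 (SE 0.16, adjusted p = 0.00438), and its 3 probe sets differed by -1.29, -1.03 and -1.42. The call of Nras passed without each single line. Spry4, an inhibitor of receptor kinase signalling, rose by 1.28, a call lost without CarC, and Erbb2, a receptor of the EGF receptor family, fell by 0.78, a call lost without CarC, CarB, D3, MSN2 or H11. The number of calls was 1 without CarC and 2 without CarB, MSN2 or H11. Of the IGF-binding proteins, Igfbp4 rose beside Igfbp6, from 6.73 to 9.17 in the 5 others to 12.20 in CarC and 12.16 in CarB (difference 4.48, SE 0.61), a call lost without CarC.

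Calls among cytokine genes were all rises in the pair. Of 22 tested chemokine and cytokine genes 7 were called higher and 0 lower (31.8% against 12.5%). Without each single line 5 were called (22.7% against 2.17%), Ccl7, Ccl9, Il6, Il11 and Il18. Of these, Ccl9, Il6 and Il11 were below the array medians in the 5 others and were tested only through CarB and CarC. Their scatter in the 5 lines is that of background, so the share of 22.7% is not support for the list. The chemokine Ccl9 stood at 7.91 in CarC and 8.50 in CarB, against 4.0 in D3, 4.44 in D3DP, 4.62 in A5, 4.22 in MSN2 and 4.42 in H11. The groups did not overlap (difference 3.86, SE 0.23, adjusted p = 0.000277). Il6, an inflammatory cytokine, rose by 2.62 (SE 0.16) from near background, to 6.24 and 6.06, and Il18, of the interleukin 1 family, by 3.41 (SE 0.37). Ccl7, which attracts monocytes and is named after its values were seen, rose by 2.53 (SE 0.26). Outside the spindle lines, MSC12 stood higher than CarB and CarC for Ccl9 (11.38), Il6 (7.25) and Ccl7 (10.84). MSCP5 and MSC7A did so too for Il6 (6.94 and 6.52) and Ccl7 (9.75 and 9.72), and B9Smad for Il6 (7.55). No other line exceeded both for Il18 (10.71 or less) or either for Il11 (6.27 or less). With all replicated groups in 1 fit Ccl7, Ccl9 and Il6 lost their calls, and Il6 also with B9Smad added. Il11 was higher in CarB (8.37) than in CarC (6.45), with 4.21 to 4.89 in the 5 others, and the gap between CarB and CarC did not pass limma with the spread of the 5 lines (adjusted p = 0.0876).

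Antigen presentation genes gave calls in the pair that were all rises. Of 11 tested genes of MHC class I and antigen processing, 6 were called higher and 0 lower (54.5%), 11 of 11 had differences above 0 and the median difference was 1.48. Both lines lay above all 5 others in 7 of the 11, against 15% of all genes tested. Taken singly against the same 5 lines, the list's median difference was 1.22 in CarB and 1.55 in CarC. Psmb8, a catalytic subunit of the immunoproteasome, stood at 8.86 in CarC and 8.37 in CarB, against 4.74 in D3, 5.10 in D3DP, 5.02 in A5, 5.22 in MSN2 and 4.72 in H11. Both lines were above the others (difference 3.65, SE 0.21, adjusted p = 0.000275), and its second probe set was below the array medians in all 7 lines. Its partner subunit Psmb9 rose by 1.79 (SE 0.26), from 5.03 to 5.99 to 7.15 and 7.28. MSCb1, a line in no group, stood higher than both lines, at 9.43 for Psmb8 and 9.33 for Psmb9. The heavy chains H2-D1 and H2-K1 rose by 1.75 and 1.61, but these genes have near-identical relatives, and their probe sets differed by -1.66 to 2.82 for H2-D1 and by -0.94 to 3.28 for H2-K1, so the values are uncertain. D3DP was the highest of the 5 others for Psmb9, H2-D1 and H2-K1. Without CarC the call of Psmb8 alone passed, and that of H2-K1 was also lost without CarB or MSN2.

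Of 24 tested interferon-stimulated genes, 1 was called, the RNA sensor relative Dhx58 (4.17% against 12.5%), although the median difference was 0.99. The mean over the list was 7.72 in CarC, 6.75 in CarB and 8.10 in D3DP, against 5.75 to 6.22 in D3, A5, MSN2 and H11. D3DP was thus the highest line of all 26 and lay above CarB and CarC. Without D3DP 7 genes of the list were called, and without each of the other 6 lines in turn, 0.

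**Figure D5:**
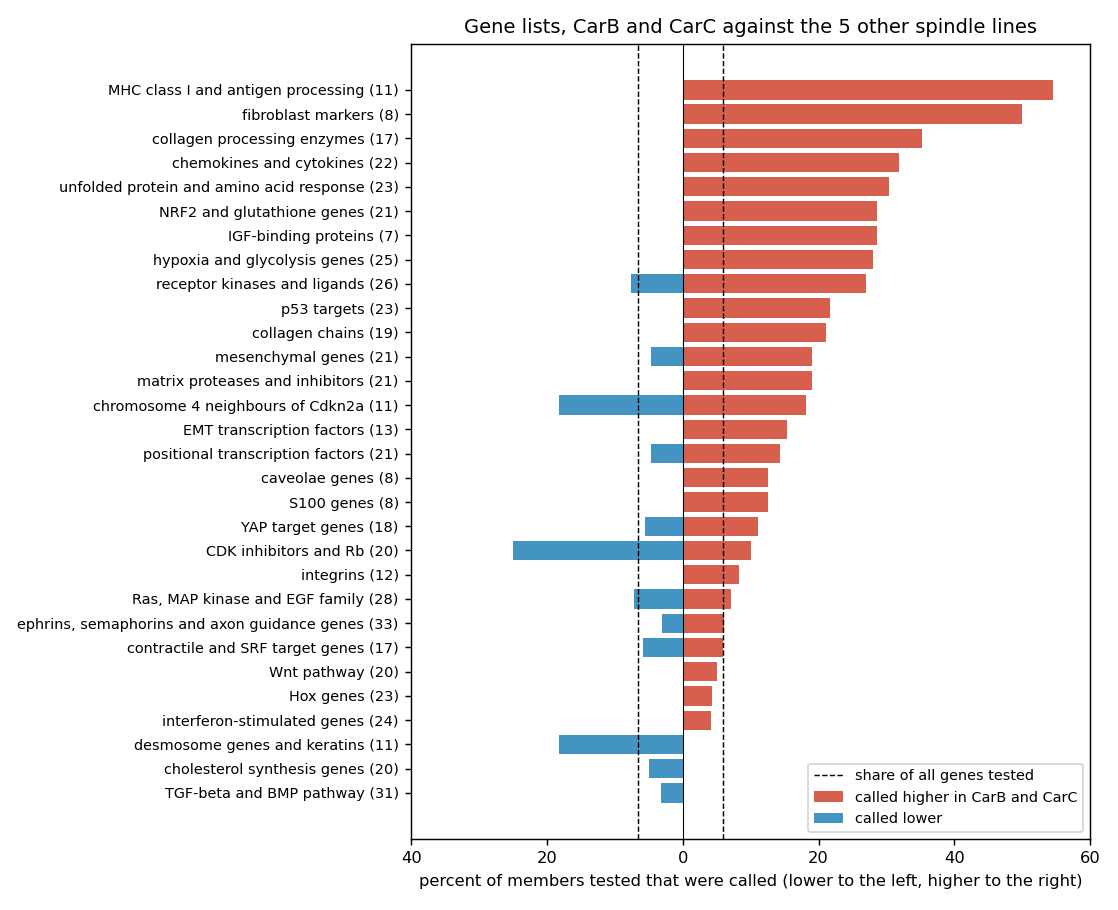
Percent of tested members of each gene list called higher (bars to the right) or lower (bars to the left) in CarB and CarC, with the number tested in brackets and dashed lines at the shares over all genes tested (5.86% higher and 6.65% lower). Lists with 7 or more members tested and at least 1 call are drawn; antigen processing, fibroblast and collagen-processing genes have the longest bars to the right.

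Genes of glutathione, hypoxia and the unfolded protein response gave calls that were all rises in the pair. Of 21 tested NRF2 and glutathione genes 6 were called higher (28.6%), of 25 hypoxia and glycolysis genes 7 (28%) and of 23 genes of the unfolded protein and amino acid response 7 (30.4%), each against 12.5%. Taken singly, CarB had median differences of 1.05, 0.45 and 0.38 over the 3 lists, and CarC 0.96, 0.78 and 0.59. In the pair 4, 10 and 7 members had differences below 0. P4ha1 and Vegfa of the hypoxia list and Sesn2 of the last list were counted above, so their calls are not further evidence. Of 20 cholesterol synthesis genes 0 were called higher and 1 lower, Mvk, a kinase of the mevalonate pathway (-1.12, 5% called), a call lost without CarC, D3DP, A5, MSN2 or H11. The glutathione transferase Gstt1 stood at 8.83 in CarC and 7.78 in CarB against 5.21 to 5.45, and Gstm2 at 10.78 and 10.25 against 4.55 to 6.55 (difference 4.93, SE 0.55), both called without each single line. Gstm1 (3.82) and the cystine carrier Slc7a11 (1.85) lost their calls without CarC or MSN2, Gstm1 also without CarB and Slc7a11 without D3, and Gstm1 and Gstm2 have close relatives that probes may not tell apart. Ddit4, an inhibitor of the mTOR kinase, stood at 11.41 and 11.44 against 7.64 to 8.85 (difference 3.34, SE 0.32, adjusted p = 0.0021). Trib3, a pseudokinase that Atf4 induces, stood at 11.60 in CarC and 10.34 in CarB against 8.14 to 8.61 (difference 2.62, SE 0.32). Car9, the hypoxia-induced carbonic anhydrase, named after its values were seen, rose by 1.22 (SE 0.21) from near background.

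Ero1a, an oxidase of protein folding (3.38), Vegfa, an angiogenic factor (1.70), Adm, a vasodilator peptide (2.97), Vldlr, a lipoprotein receptor (3.32), and the transcription factor Xbp1 (1.44) were also called higher, each lost without CarC. Vegfa and Vldlr were also lost without MSN2, Vldlr without CarB, and Adm without CarB, D3, A5, MSN2 or H11. Of the called members of the NRF2, hypoxia and unfolded protein lists, only Gstm2, Gstt1, Car9, Ddit4 and Trib3 kept the call without each single line. Without MSN2 the hypoxia and the unfolded protein lists had 3 calls each.

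Smaller groups gave single genes. Of 18 tested YAP target genes 2 rose and 1 fell (16.7%, near the 12.5% of all genes), and 1 was called without CarC. F3, tissue factor, rose by 2.83 (SE 0.33), to 8.74 in CarC and 9.17 in CarB from 5.75 to 6.81. Gadd45a, a growth arrest gene, rose by 3.23 (SE 0.43), a call lost without CarC, and Ccn2 fell by 3.80 (SE 0.93). Ccn2 stood at 4.95 in CarC and at 8.34 in CarB, against 9.28 to 11.30, and its call was lost without CarC, D3DP, A5, MSN2 or H11, so the fall was mostly that of CarC. The embryonic patterning factor Tbx18 stood at 7.76 and 8.52 against 4.12 to 5.03 (difference 3.74, SE 0.31, adjusted p = 0.00113), and the Hox gene Hoxc8 at 9.55 and 7.60 against 3.40 to 6.06, a call lost without CarC, D3, A5 or H11. S100a8, a calcium-binding protein of inflamed skin, rose by 1.86 (SE 0.17), from 3.94 to 4.35 to 6.04 and 5.82.

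Among contractile and guidance genes, the myosin light chain Myl9 stood at 10.48 in CarC and 7.62 in CarB against 3.69 to 5.59, a call lost without CarC, and filamin A (Flna) fell by 1.06, a call lost without CarC or MSN2. The repulsive guidance ligands Sema3a (3.96) and Sema5a (3.32) rose and netrin-1 (Ntn1) fell by 2.39. Those 3 calls were lost without CarC or MSN2, Sema3a and Sema5a also without D3DP, Sema3a and Ntn1 without CarB, and Sema5a without A5. The transcription factor Foxf1 rose by 1.62 (SE 0.41), a call lost without CarC, CarB, D3, D3DP or MSN2. Of 14 epithelial junction genes tested, 0 were called in limma, and 4 had an unadjusted p under 0.05.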

How the data were processed

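RNA of 26 mouse skin cell lines was measured on 1 Affymetrix M430 2.0 array each. The values the authors deposited are on a log2 scale and come from RMA, as the submitters' processing notes name it. RMA corrects background, quantile-normalises arrays and summarises probe sets. Its version is not given in the sources used here, and quantile normalisation hides changes in total RNA. The table has 45037 probe sets, of which 34945 were given 1 gene symbol through the platform table, 932 several and 9160 none here, and 34741 were matched to RefSeq by gene ID.

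The probe set of highest mean stood for each gene (18193 genes), and genes above the array median on 2 or more of the 7 lines were tested (11786). A gene near background in all 5 others could thus be tested through CarB and CarC alone. limma 3.58.1 (R 4.3.3; lmFit, eBayes) compared CarB and CarC with the other 5 in 1 model, and each singly in a model of 3 groups. Adjusted p-values are limma's, by Benjamini-Hochberg over all genes tested, called under 0.05. SEs are limma's. Replicate numbers follow deposition order and pair nothing. The arrays' number limits precision. The fit was tested on simulated data with independent lines, so that test does not bear on the likeness of some of the 5 lines.

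The members and the 42 gene lists (852 entries, 48 without a probe set here) were chosen with earlier results of these data known. Lists were counted, not tested. Genes named are the 10 largest called rises and falls, up to 4 called members of each list, the 8 largest differences between CarB and CarC each way, the 3 largest in each proliferation list, and members of 4 lists (chromosome 4 neighbours, CDK inhibitors, transition factors, sex-linked); 3 more were named after their values were seen. Not every gene that these rules pick is printed, and the called Lox, Itga5, Skil, Ier3, Lrp6, Flot1 and Msx2 are among those left out. The integrin, TGF-beta, Wnt and caveolae lists had 8.33%, 3.23%, 5% and 12.5% called and are not described above. Alternatives were other filters, probe set choices, error models and lines left out. Promoters are RefSeq's on GRCm38.p6, matched for 3 of 3 genes.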

Additional observations from a re-analysis of the deposited data

Results flagged for a closer look

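Among the 5 other spindle lines, 1 line lay far from the rest for 13 of 129 named genes and 1 of 6 list means, by a gap over the 95% critical value of Dixon's test. Chance flags about 1 in 20. D3DP was the high line for H2-D1 (11.63 against 10.61 to 10.88), H2-K1 (11.27 against 10.08 to 10.41), Dhx58 (5.40 against 4.04 to 4.43) and the mean of interferon-stimulated genes (8.10 against 5.75 to 6.22), and also for Ift74 (9.68 against 9.22 to 9.32) and Zfp518b (5.71 against 4.78 to 5.03). MSN2 was high for Bgn (7.65 against 5.48 to 5.87), Cdh11 (5.67 against 3.01 to 3.47), Nid1 (3.86 against 3.32 to 3.46) and Tbx18 (5.03 against 4.12 to 4.35). H11 was high for Adamts1 (9.46 against 7.71 to 8.02) and Igfbp6 (6.38 against 5.10 to 5.41), and A5 for Erbb2 (7.37 against 6.96 to 7.04). D3 was low for Mvk (8.15 against 8.64 to 8.80). CarB and CarC stayed outside the range of the 5 lines, on the same side, for Bgn, Nid1, Tbx18, Adamts1, Igfbp6, Erbb2, H2-D1, H2-K1, Dhx58, Ift74 and Mvk. For Zfp518b they lay outside it on opposite sides, CarC at 8.11 and CarB at 4.04. For Cdh11 CarB lay inside the range.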

How the results depend on the processing

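The count of 1475 genes was 345 to 1437 when each line was left out in turn, 345 without CarC and 783 to 924 without A5, MSN2 or H11. It was 940 with all replicated groups of the series in 1 fit, 960 with array weights and 2464 of 21377 with each probe set tested singly. Alternatives added after the data were seen gave 573 with the close arrays (D3, D3DP and MSN2; A5 and H11) as a random block and 1 with them averaged. No filter, a stricter filter, another probe set choice, a trended robust fit, centring, D3 and D3DP averaged, and B9Smad added gave 1345 to 1529. CarB alone had 345 calls, 125 to 230 without single lines (lowest without A5, then 171 without MSN2, 187 without H11 and 229 without D3) and 0 with the close arrays averaged, where 1571 genes had an unadjusted p under 0.05. CarC alone had 1437, 857 to 1344 without single lines (857 without A5, 859 without MSN2, 899 without H11) and 0 with them averaged (2492 unadjusted). All 1475 genes kept their sign in every fit on the same probe sets that tested them, and 1444 of 1464 with the probe set of largest variance. Of 88 called genes named above, 1, Nid1, was called in every alternative that tested it, and 87 kept their sign. H2-D1 reversed (-1.66 with the probe set of largest variance), as did uncalled genes: Mllt3 (0.22, same setting), Focad (0.01 without CarB, 0.13 without A5 or H11, -0.23 to 0.13 over all single lines), Xist (-0.03 without CarB, up to 3.64 without CarC) and Grhl2 (0 without D3DP, 0.01 without MSN2, down to -0.21 without A5). The causes were not tested. No paired analysis was possible because replicate numbers only follow deposition order. D3 and D3DP as a random block could not be fitted, since 1 pair gives no correlation. Genes below the array medians are near background, where differences are compressed.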

Other observations

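For 2 carcinoma lines whose spindle state is not stated, the position between the groups was read gene by gene. 2945CA lay on the side of CarB and CarC, past the midpoint between the group means, for 44.6% of the 691 genes called higher and 59.8% of the 784 called lower. MSCb1 did so for 41.1% and 63.8%. The 12 carcinoma lines without spindle pathology lay on that side for 10.7% (E4) to 37.3% (MSC12) of the higher and 10.2% (MSC11B) to 38.3% (MSCP1) of the lower genes, SN161 for 30.8% and 37.8%. B9Smad and Hrasnull, whose labels and flags conflict, did so for 14.5% and 20.3%, and for 27.4% and 44%. MSCb1 (8.12) and 2945CA (9.38) followed CarC (7.74) as the lowest of the 26 lines in the mean of mitotic genes. These are values, with no test.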
